A study of Mus musculus with 12 samples.

Results

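The contacts of the Mycn enhancer on mouse chromosome 12 are described here in embryonic stem (ES) cells and in mouse embryonic fibroblasts (MEFs). All 7348 windows listed for this viewpoint were taken, of 17305 listed for the 3 viewpoints of the series, and no window was chosen by its value. The data are from 4C-seq, in which a DpnII digest of crosslinked nuclei was ligated, trimmed with Csp6I and circularized, so that whatever had been joined to 1 chosen site, the viewpoint, could be amplified and sequenced. Each cell type had 2 libraries. The ES cells were of the V6.5 line, grown in 2i, a medium with inhibitors of differentiation signals. The MEFs were prepared from E13.5 rtTA3-OKSM embryos, heterozygous for an Oct4-GFP reporter, for the OKSM cassette (the reprogramming factors Oct4, Klf4, Sox2 and Myc) and for rtTA3, the doxycycline-dependent activator of that cassette. They were grown in DMEM, and their labels name no doxycycline. The ES cells are 1 line, and their labels name none of these alleles, so cell type, genotype and medium cannot be told apart. The number of embryos behind the MEFs was not given in the labels used here. Contact data hold no expression values, so the cell types were not checked against marker genes. No label says whether replicates were separate cultures, so every p-value reflects the spread of these 4 libraries alone, part or all of which may be technical.

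An enhancer is a stretch of DNA that raises transcription of a gene, often one that lies far away on the same chromosome, and contact between the pair is thought to be needed at many genes. Mycn encodes a transcription factor of the MYC family that is expressed in pluripotent cells. Contacts of any site fall with distance along the chromosome, and domains of self-contact and loops appear as departures from that fall.

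Values are counts per 1000 of a library total, in windows of 10 kb that step by 1 kb, with mm10 coordinates. ES replicates 1 and 2 held 88038 and 27290 counts and the MEF replicates 16774 and 59424, so 1 count was worth from 0.0114 to 0.0596 per 1000. The labels give no position for the viewpoint, so it was taken as the window of highest mean, chr12:12786001-12796000. That window held 70.5 and 72.2 per 1000 in ES cells against 67.5 and 70.6 in MEFs. Distances are from this window, with minus for lower coordinates. A window entered a test where at least 2 of the 4 libraries reached 1 per 1000, which 1107 windows did, 588 of them on the lower and 518 on the higher side. Of these, 978 lay within 500 kb of the viewpoint and 15 beyond 1 Mb.

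The sequences just upstream of 4 genes are shown because contacts at the starts of these genes are compared in what follows. Each is the 250 bases before the most upstream start in RefSeq (GRCm38.p6), 5′ to 3′ on the gene's strand. Capitals mark GATC (the DpnII site), GTAC (the Csp6I site) and CACCC or its reverse complement GGGTG (the core of sites bound by KLF factors).
Mycn: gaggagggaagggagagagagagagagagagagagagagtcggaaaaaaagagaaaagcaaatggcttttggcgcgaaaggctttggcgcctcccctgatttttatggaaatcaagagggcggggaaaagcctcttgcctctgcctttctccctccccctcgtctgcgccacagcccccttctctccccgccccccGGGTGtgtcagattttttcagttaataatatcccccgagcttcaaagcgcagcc
Ddx1: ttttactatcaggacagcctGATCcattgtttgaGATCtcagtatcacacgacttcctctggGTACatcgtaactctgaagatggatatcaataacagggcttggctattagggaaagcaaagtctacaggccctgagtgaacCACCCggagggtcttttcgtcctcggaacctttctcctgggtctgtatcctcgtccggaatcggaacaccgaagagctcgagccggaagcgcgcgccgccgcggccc
Cyria: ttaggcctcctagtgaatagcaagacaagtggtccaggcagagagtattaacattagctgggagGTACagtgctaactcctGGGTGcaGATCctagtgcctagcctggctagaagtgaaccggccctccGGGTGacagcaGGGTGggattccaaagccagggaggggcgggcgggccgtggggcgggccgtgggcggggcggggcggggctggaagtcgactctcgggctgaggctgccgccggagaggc
Gm34489: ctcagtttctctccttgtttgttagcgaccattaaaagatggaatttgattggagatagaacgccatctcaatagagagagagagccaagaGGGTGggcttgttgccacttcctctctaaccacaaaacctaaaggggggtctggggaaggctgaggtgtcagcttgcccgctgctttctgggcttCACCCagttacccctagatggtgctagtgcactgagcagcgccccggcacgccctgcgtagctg
They lie at chr12:12941837-12942086 on the minus strand (Mycn), chr12:13249175-13249424 on the minus strand (Ddx1), chr12:12261927-12262176 on the plus strand (Cyria) and chr12:12420791-12421040 on the plus strand (Gm34489). The Mycn stretch held no DpnII and no Csp6I site, and 1 GGGTG. Ddx1 had 2 GATC, 1 GTAC and 1 CACCC, Cyria had 1 GATC, 1 GTAC and 3 GGGTG, and Gm34489 had 1 CACCC and 1 GGGTG. Of all 32851 mouse stretches of this kind, 41.9% held GATC, 31.5% held GTAC and 52.0% held CACCC or GGGTG, so such matches are common, and they describe the letters alone.

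In both cell types counts were highest beside the viewpoint and fell steeply with distance. Windows within 20 kb of the viewpoint together held 137 and 142 per 1000 in ES cells against 147 and 150 in MEFs. Of the 2001 windows possible within 1 Mb, 1904 were listed. Every window of the list was seen in 3 or 4 libraries, and windows seen in fewer were not analysed here. Beyond 1.6 Mb, 4519 windows from 3246001 to 118883000 were listed, none reached the filter, and the highest mean among them was 0.637 per 1000. Their sum was 66.6 and 61.6 per 1000 in ES cells against 75.8 and 60.4 in MEFs, so MEF replicate 1 was highest and the groups overlapped.

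**Figure D1:**
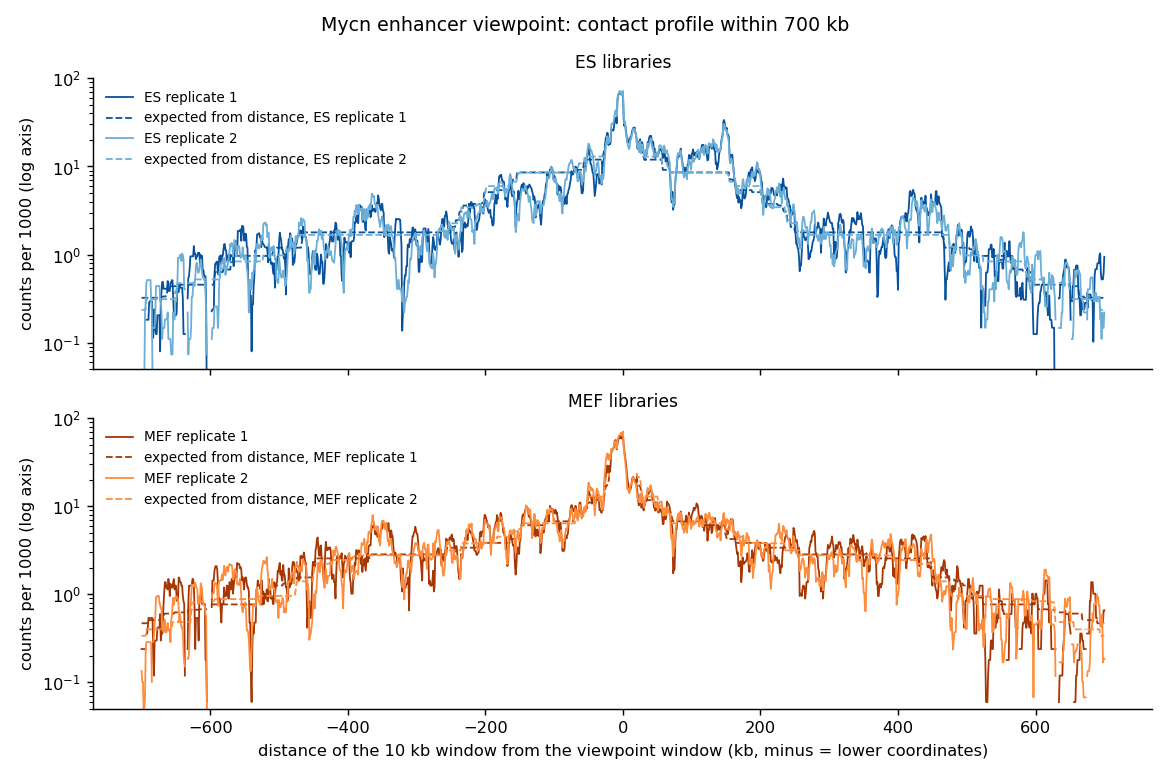
Counts per 1000 (vertical, log axis) in each 10 kb window against its distance from the viewpoint window in kb (horizontal), with ES libraries above and MEF libraries below. Solid lines are libraries, dashed lines the value that distance alone gives in that library, and values under 0.05 are not drawn. The ES lines rise to 33.7 and 30.4 at 147 kb, where the MEF lines stand at 7.45 and 8.35.

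Fitted over 25 to 1600 kb, the decay was steeper in ES cells, more so on the higher than on the lower side. The slope of log2 value on log2 distance from 25 to 1600 kb was -1.16 and -1.17 in the ES libraries against -0.999 and -1.07 in the MEF libraries, a difference of -0.134. The groups did not overlap. On the lower side alone the slopes were -1.02 and -1.05 in ES cells against -0.98 and -1.04 in MEFs, and here the groups overlapped. On the higher side they were -1.31 and -1.31 in ES cells against -1.02 and -1.10 in MEFs. An exact permutation test with 2 against 2 libraries cannot go below p = 0.3333, which it gave, two-sided, for both sides together and for the higher side, and it gave 0.667 for the lower side. Within 200 kb on the higher side, however, ES values fell less than MEF values. Per window they went from 16.9 and 16.0 at 25 to 50 kb to 12.7 and 13.0 at 100 to 200 kb in ES cells. In MEFs they went from 11.9 and 12.9 to 5.21 and 5.45. The steeper ES fit on that side thus came from distances past 200 kb.

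The reach of the contacts differed as well. Of all counts outside 20 kb, 57.9% and 59.7% lay within 200 kb in ES cells against 45.0% and 48.8% in MEFs, a mean of 58.8% ± 1.24 against 46.9% ± 2.67 (SD, n = 2 each; exact permutation p = 0.3333, the smallest possible). The distance that held 50 of every 100 counts was 165 and 160 kb in ES cells against 254 and 225 kb in MEFs. All listed windows at least 25 kb out were counted for it, with no upper limit. Windows within 20 kb, which neither measure counts, held more in MEFs (147 and 150 per 1000) than in ES cells (137 and 142). Outside them, ES contacts were thus closer to the viewpoint in both libraries. The contrast was wider on the higher side, at 151 and 148 kb against 271 and 226 kb, than on the lower side, at 207 and 198 kb against 248 and 224 kb, and that difference between sides was not tested.

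Side balance differed between the cell types. Between 25 and 1600 kb, the higher side held 325 and 322 per 1000 in ES cells against 232 and 229 in MEFs, and the lower side held 202 and 208 in ES cells against 264 and 266 in MEFs. The higher side, where Mycn lies, thus took 61.7% and 60.8% of these counts in ES cells against 46.8% and 46.2% in MEFs. ES cells leaned to the higher side and MEFs slightly to the lower side in every library. The log2 ratio of higher over lower was 0.66 ± 0.04 in ES cells against -0.20 ± 0.02 in MEFs (SD, n = 2 each), a difference of 0.86 (exact permutation p = 0.3333, the smallest possible).

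**Figure D2:**
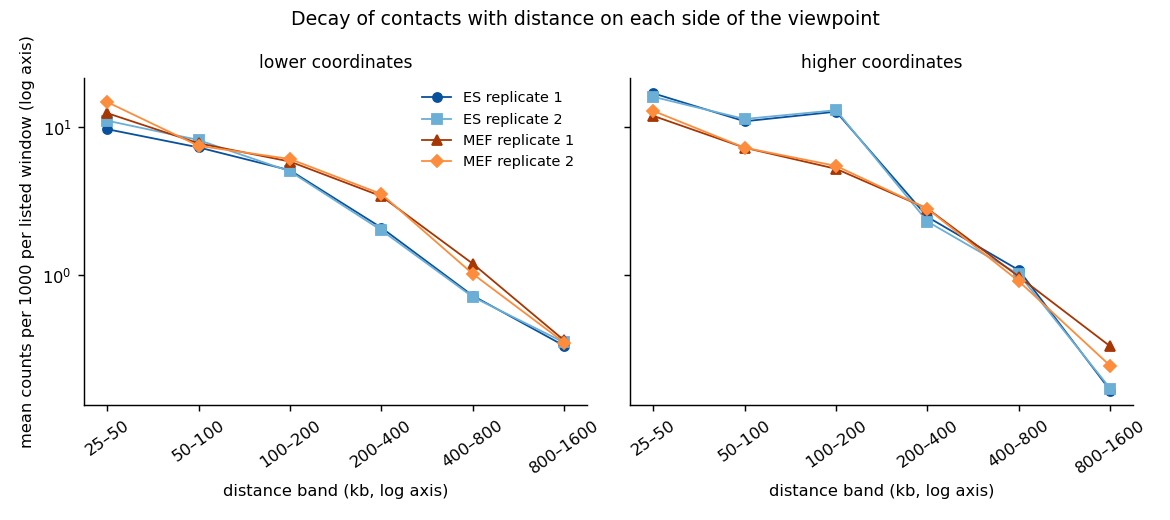
Mean counts per 1000 per listed window (vertical, log axis) in distance bands that double from 25 to 1600 kb (horizontal, log axis), on the lower (left) and higher (right) side, each line 1 library. On the higher side the ES lines stay near 12.7 and 13.0 at 100 to 200 kb and then drop to 2.46 and 2.29, while the MEF lines pass from 5.21 and 5.45 to 2.80 and 2.79.

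Bands of distance placed these differences. The 9 bands on each side were compared with limma on log2 of the sum of counts, and 6 of 18 passed at an adjusted p of 0.05 (33.3%), 3 ES-higher (16.7%) and 3 MEF-higher (16.7%). The largest difference was on the higher side at 100 to 200 kb, the band that contains Mycn. It held 127 and 130 per 1000 in ES cells against 52.1 and 54.5 in MEFs, so both ES libraries were well above both MEF libraries. The log2 difference was 1.27 (95% interval 1.06 to 1.48, limma adjusted p = 0.000223).

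Nearer the viewpoint on that side the difference was smaller. At 50 to 100 kb ES cells held 54.7 and 56.7 and MEFs 36.2 and 36.2 per 1000 (log2 difference 0.62, limma adjusted p = 0.00279). At 25 to 50 kb they held 42.3 and 40.1 against 29.8 and 32.2 (0.41, adjusted p = 0.0155 by limma). Both ES libraries were above both MEF libraries in each of these bands.

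In the next band out, taken whole, ES cells were not higher. At 200 to 400 kb on the higher side the values were 49.2 and 45.8 in ES cells against 56.1 and 55.9 in MEFs, a log2 difference of -0.24 that did not pass (limma adjusted p = 0.0688). The drop per window from the 100 to 200 kb band to the next was 5.16-fold and 5.68-fold in ES cells and 1.86-fold and 1.95-fold in MEFs. ES cells thus had a sharp step between these bands on the side of Mycn. On the lower side the same drop was 2.45-fold and 2.51-fold in ES cells and 1.72-fold and 1.73-fold in MEFs.

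At 400 to 800 kb on the higher side the groups stood close, at 41.3 and 38.7 in ES cells against 37.3 and 34.7 in MEFs (log2 difference 0.15, 95% interval -0.08 to 0.38). At 800 to 1600 kb MEFs were higher, with 20.4 and 15.1 against 10.3 and 10.6 in ES cells (-0.75, limma adjusted p = 0.0141). The MEF libraries differed more from each other there than the ES libraries did.

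On the lower side MEFs were higher at middle distances. At 200 to 400 kb, the band that contains the noncoding RNA gene Gm34489, ES cells held 41.6 and 40.0 per 1000 and MEFs 68.0 and 70.3. The groups were well apart, with a log2 difference of -0.76 (95% interval -0.97 to -0.55, limma adjusted p = 0.00164). At 400 to 800 kb they held 27.2 and 26.7 against 44.8 and 38.2 (-0.62, limma adjusted p = 0.00751).

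Nearer the viewpoint on that side the bands did not pass. At 25 to 50 kb ES cells held 24.2 and 27.6 per 1000 and MEFs 31.1 and 36.9 (-0.39, limma adjusted p = 0.0534, under 0.05 in 4 of 8 alternatives). At 100 to 200 kb they held 50.9 and 50.1 against 58.4 and 60.8 (-0.24, 95% interval -0.45 to -0.03, limma adjusted p = 0.0661). MEFs were above ES cells in every library in both of these bands.

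In another 2 bands of the lower side the libraries overlapped. At 50 to 100 kb the values were 36.4 and 40.8 in ES cells against 38.8 and 37.3 in MEFs, with a 95% interval of the log2 difference from -0.23 to 0.26. At 800 to 1600 kb they were 21.2 and 22.4 against 23.1 and 22.3, with an interval from -0.28 to 0.16. None of the 6 bands beyond 1600 kb passed the test. The lower side at 1600 to 3200 kb came nearest, with 8.40 and 10.6 in ES cells against 13.3 and 12.1 in MEFs (-0.43, limma adjusted p = 0.0534, under 0.05 in 5 of 8 alternatives), and in those bands at most 48.3% of possible windows were listed.

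The band calls differed in how firmly they stood. Those at 50 to 100 and 100 to 200 kb on the higher side and at 200 to 400 kb on the lower side passed without each library in turn (limma adjusted p up to 0.0419). The calls at 25 to 50 and 800 to 1600 kb on the higher side and at 400 to 800 kb on the lower side ended without ES replicate 1 (adjusted p from 0.144 to 0.255) or without ES replicate 2 (0.113 to 0.203), each of which left 3 calls, and without MEF replicate 1 there were 10.

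**Figure D3:**
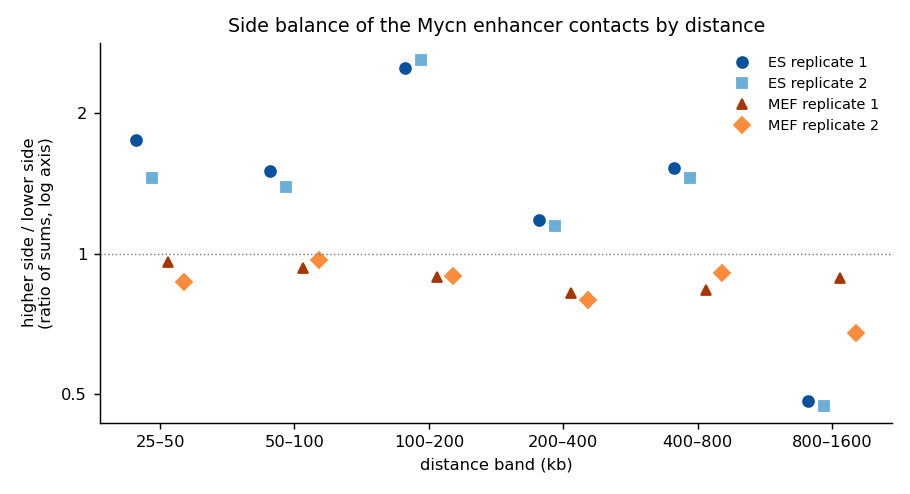
Ratio of the summed counts on the higher side to those on the lower side (vertical, log axis) in 6 distance bands (horizontal, kb), each point 1 library. The dotted line marks equal sides. ES points lie above 1 from 25 to 800 kb with their highest values, 2.49 and 2.59, at 100 to 200 kb, and below 1 at 800 to 1600 kb, while all MEF points lie below 1.

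Band by band, the higher side exceeded the lower side in both ES libraries in the 5 bands from 25 to 800 kb, and fell short of it in both MEF libraries in all 6 bands to 1600 kb. The ratio at 100 to 200 kb was 2.49 and 2.59 in ES cells against 0.893 and 0.898 in MEFs. At 800 to 1600 kb the ES ratio turned, to 0.484 and 0.473, below the MEF ratios of 0.886 and 0.675. The lean of ES cells to the side of Mycn thus held out to 800 kb and turned at 800 to 1600 kb. Farther out ES ratios were mixed, at 1.39 and 0.988 (1600 to 3200 kb), 1.80 and 1.21 (3200 to 6400 kb) and 0.516 and 0.643 (6400 to 12800 kb). MEF ratios there were 0.978 and 1.03, 1.53 and 1.46, and 0.913 and 0.666.

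The other viewpoints of the series gave a different and a like picture. At the Ets1 promoter the ES minus MEF differences ran the other way, at 0.264 for the slope, -0.59 for the log2 side balance and -7.84 percentage points for the share within 200 kb. The differences between the viewpoints' differences were -0.399, 1.45 and 19.8 points, each at an exact permutation p of 0.0556, the smallest that 36 arrangements can give here, and 0.111 after Benjamini-Hochberg adjustment over 6 comparisons. At the Tbx3 enhancer the ES minus MEF differences ran the same way as here (-0.105, 0.90 and 14.1 points). Higher and lower coordinates are different neighbourhoods at each viewpoint, so the sign of the side balance has no shared meaning between them.

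Contacts were then set against distance. A curve that falls with distance, both sides together, was fitted in each library, and log2 of observed over expected, each plus 1, was taken as the contact strength beyond distance, called O/E here. A contact peak is a window at least 25 kb out, with a value of at least 1 in both libraries of a cell type and O/E above 0 in both, whose mean O/E is the highest within 25 kb on each side. ES cells had 18 peaks, 9 on each side, and MEFs had 23, 13 on the lower and 10 on the higher side. Being ranked by these values, the peaks are descriptions.

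The first ES peak was at Mycn. The window chr12:12933001-12943000, 147 kb from the viewpoint, covers the start of transcription and the gene, and held 33.7 and 30.4 per 1000 in ES cells against 7.45 and 8.35 in MEFs. No MEF library came near the ES libraries. The mean O/E was 1.79 ± 0.10 in ES cells against 0.30 ± 0.06 in MEFs (SD, n = 2 each), so the window stood above its distance in all 4 libraries.

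On the same side, ES peak 3 lay beside Ddx1, which encodes an RNA helicase of the DEAD-box family and neighbours Mycn. At chr12:13208001-13218000, 422 kb out and 1.31 kb from the gene, ES cells held 5.44 and 4.43 and MEFs 4.23 and 3.65 per 1000, with mean O/E of 1.12 and 0.50. Nearer peaks of ES cells on this side were at 41 kb on the noncoding RNA gene Gm35155 (22.3 and 20.8 per 1000, MEFs 15.7 and 16.6), at 84 kb between genes (15.9 and 15.2, MEFs 8.70 and 8.52) and at 195 kb on the noncoding RNA gene Gm35208 (9.13 and 11.2, MEFs 3.70 and 4.12). In these 3 windows both ES libraries were above both MEF libraries. The peak at 233 kb was uneven, with 7.28 and 5.13 in ES cells against 3.40 and 5.97 in MEFs, and the groups overlapped.

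On the lower side, ES peak 4 lay at the start of Gm34489, at chr12:12421001-12431000, 365 kb out. ES cells held 3.62 and 4.91 per 1000 and MEFs 5.90 and 6.48, with mean O/E of 0.94 and 0.92. ES peak 2 was far out, at chr12:11285001-11295000, 1501 kb away within Smc6, which encodes a subunit of a chromosome maintenance complex. It held 1.57 and 1.76 in ES cells against 0.60 and 0.29 in MEFs. ES peaks 9 and 10, in Cyria (522 kb out, O/E 0.47) and in the noncoding RNA gene Gm40838 (553 kb out, O/E 0.47), were weak and uneven between the replicates. Cyria encodes a protein that binds the GTPase Rac1.

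In MEFs the first peak was the same place at Gm34489, at chr12:12422001-12432000, with 5.90 and 7.94 per 1000 in MEFs and 3.12 and 4.62 in ES cells, and a mean O/E of 1.05 ± 0.28 in MEFs (SD, n = 2). The next lay 201 kb out at chr12:12585001-12595000, between genes, with 7.99 and 6.98 in MEFs and 4.24 and 3.59 in ES cells. Another lay 141 kb out, at chr12:12645001-12655000 near the noncoding RNA gene Gm34637, with 9.54 and 10.2 in MEFs and 4.92 and 5.53 in ES cells. The MEF libraries were above the ES libraries at the last pair of windows. ES cells lay below expectation there (O/E -0.26 and -0.62) by the curve of both sides together. With a curve fitted to each side alone, MEF O/E was 0.54 at 201 kb and 0.59 at 141 kb. At 201 kb the ES minus MEF difference was then -0.37, so ES cells were not below that curve.

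The other MEF peaks among the first 10 were spread widely. Vsnl1, which encodes a neuronal calcium sensor, had the third at 1434 kb on the lower side, with 1.19 and 1.03 per 1000 in MEFs and 0.17 and 0.44 in ES cells. Nbas, a gene of vesicle transport from the Golgi to the endoplasmic reticulum, had the fifth at 614 kb on the higher side, with 1.43 and 1.90 in MEFs and 0.34 and 0.26 in ES cells. A window 810 kb out on the lower side, with no gene, held 1.07 and 1.11 in MEFs and 0.11 and 0.073 in ES cells. Both MEF libraries were above both ES libraries in these 3 windows. The rest lay beside Gm40838 (O/E 0.63), on Gm34489 at 302 kb (0.60), on Ddx1 at 440 kb (0.57) and on Cyria at 464 kb (0.56).

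**Figure D4:**
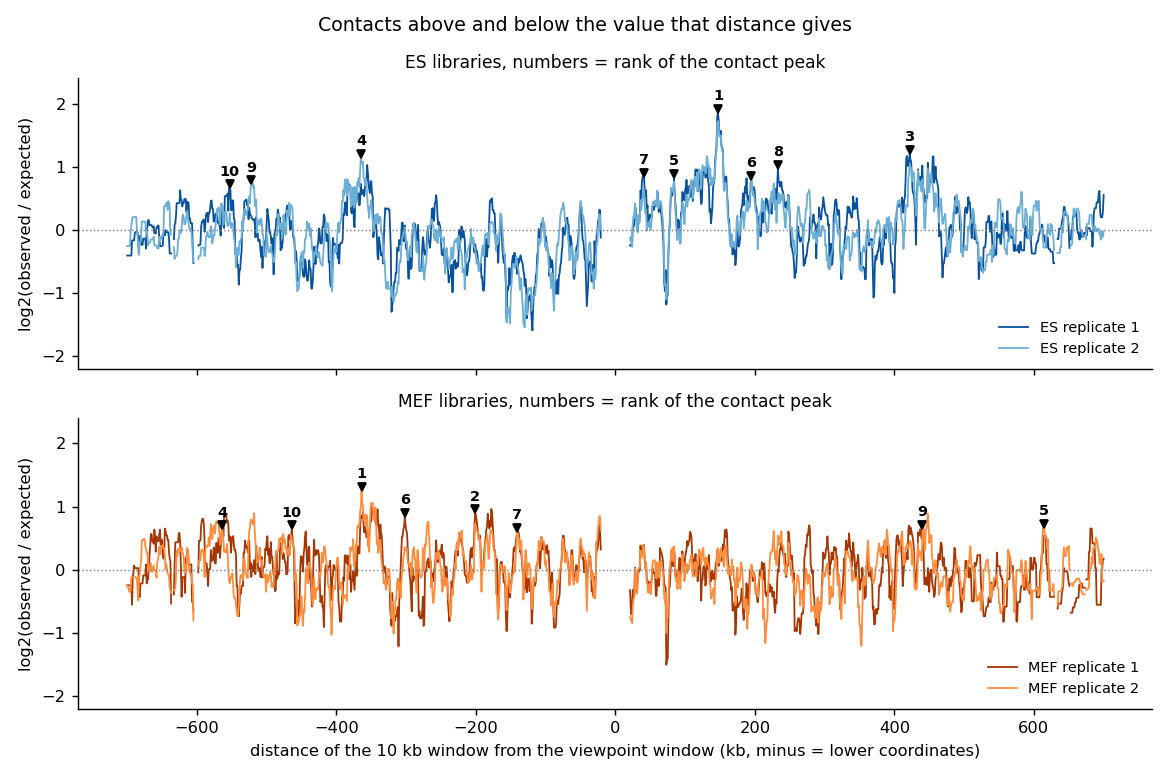
Log2 of observed over expected counts (vertical) against the distance from the viewpoint in kb (horizontal, the 20 kb on each side of the viewpoint left out), with 1 line per library, ES above and MEF below. Triangles with numbers mark those of the 10 highest ranked peaks that lie within 700 kb. ES peak 1, at 147 kb, reaches 1.86 and 1.72, and ES peak 4 and MEF peak 1 stand at the same place, 365 and 364 kb out on the lower side.

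Peaks ranked in 1 replicate alone were read in the other replicate, which that ranking had not used. Of the first 10 peaks of each library, 9 (ES replicate 1), 9 (ES replicate 2), 8 (MEF replicate 1) and 9 (MEF replicate 2) were above expectation in the other library of the cell type, 35 of 40. Of all windows compared, 52.6% to 55.7% were above expectation in that library. The share of peaks was above that of windows at large in each library, a description with no test. Median O/E of the 10 peaks in the library that did not rank them was 0.50 and 0.73 in ES cells against 0.30 and 0.14 in MEFs.

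Shares of peaks near a peak of the other cell type were close to those of windows at large. Of 18 ES peaks 12 (66.7%) lay within 20 kb of a MEF peak, and of 23 MEF peaks 13 (56.5%) lay within 20 kb of an ES peak. Of all tested windows, 66.0% and 58.7% lay as near to a peak of the other cell type. Across windows, O/E correlated at r = 0.79 between the ES libraries, 0.60 between the MEF libraries and 0.31 to 0.35 between libraries of different cell types. These r values describe 1068 windows that overlap their neighbours and carry no test.

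What the cell types had in common was seen in single places. Of 1068 windows compared, 236 were above expectation in all 4 libraries and 172 below in all 4, while 82 were above in both ES and below in both MEF libraries and 112 the reverse. Ranked by the mean O/E of all 4 libraries, the first stretch above expectation in each ran over Mycn (chr12:12931001-12957000). It led through ES cells, with O/E of 1.86 and 1.72 at its best window against 0.26 and 0.34 in MEFs. The next ran over the start of Gm34489 (chr12:12416001-12448000), with 0.57 and 1.07 in ES cells against 0.85 and 1.25 in MEFs, and another pair over the end of Ddx1 and its flank (chr12:13202001-13224000 and chr12:13220001-13238000).

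The contact at the start of Gm34489 stood above its distance in both cell types, with no difference of O/E that passed at its peak windows. At the ES peak window the ES minus MEF difference of O/E was 0.02, with a 95% interval from -0.38 to 0.42. At the MEF peak window 1 kb away it was -0.23, with an interval from -0.72 to 0.26. Without the correction for distance, the MEF peak window was called MEF-higher (log2 difference -0.71, limma adjusted p = 0.0173). The ES peak window was not (-0.46, limma adjusted p = 0.0916). The whole gene with 10 kb on each side was also called MEF-higher without the correction (-0.62, limma adjusted p = 0.00205). At chr12:13226001-13236000 within Ddx1, ES cells held 4.66 and 3.66 per 1000 against 4.59 and 3.52 in MEFs, and the groups overlapped. Its O/E difference was 0.34, with an interval from -0.01 to 0.69.

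For 751 of the 1068 windows the 95% interval of the O/E difference lay within -1 and 1, and 744 of these were not called. Only 3 windows were both that alike and at least 1 from expectation in both cell types. They overlap each other at 73 to 75 kb on the higher side, from 12859001 to 12871000, and lie below expectation. The first of them had mean O/E of -1.14 in ES cells and -1.25 in MEFs, a dip in counts between the viewpoint and Mycn. The DpnII sites of these windows were not read, and a cause of the dip was not tested. No window was that alike and at least 1 above expectation in both. The direction depended on the settings, with 4 windows above and 0 below at a pseudocount of 0.25 and 2 above and 4 below with a loess curve. Without ES replicate 1 there was 1 above and 0 below, without MEF replicate 1 there was 0 above and 1 below, and without either of the other libraries there was none.

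Differences beyond distance were tested with limma on O/E. It called 123 of 1068 windows (11.5%), 72 ES-higher (6.74%) and 51 MEF-higher (4.78%). Without the correction for distance it called 339 of 1107 (30.6%), 182 ES-higher (16.4%) and 157 MEF-higher (14.2%), with a median log2 difference of -0.15 over all windows tested. That uncorrected count was 221 when ES replicate 2 was dropped and 216 when MEF replicate 1 was, and it split 240 ES-higher to 36 MEF-higher with median-centred values and 162 to 217 after rescaling to counts beyond 50 kb. Of the corrected calls, 64 of the 72 ES-higher and 45 of the 51 MEF-higher windows were also called without the correction in the same direction, and none in the other. By side, the corrected fit called 59 windows ES-higher and 4 MEF-higher on the higher side, with 436 not called. On the lower side it called 13 ES-higher and 47 MEF-higher, with 509 not called. The curve took both sides together, so this split carries the side balance and is not a separate result.

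These corrected calls depended on the curve. With a curve fitted to each side alone no window passed limma at 0.05 (smallest adjusted p = 0.086, with 165 windows at an unadjusted p under 0.05), although all 123 windows kept their direction. Leaving out ES replicate 1 gave 59 calls and leaving out ES replicate 2 gave 40, against 138 and 153 without MEF replicates 1 and 2, 203 with a loess curve and 43 with a pseudocount of 0.25 in place of 1.

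The called windows joined into regions, of which the ES-higher region around Mycn was the longest. It ran over 98 kb, from chr12:12898001 to 12996000, with 51 called windows, and covered Mycn, Gm40271 and Gm35208. Its strongest window, chr12:12934001-12944000, held 31.2 and 29.1 per 1000 in ES cells against 6.32 and 6.70 in MEFs, where distance alone gave 8.54 and 6.07. ES cells stood far above their expectation there and MEFs close to it. The O/E difference was 1.62 (95% interval 1.32 to 1.92, limma adjusted p = 0.00221), and 1.03 with a curve per side (adjusted p = 0.086).

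Another 2 ES-higher regions lay at named genes. At the 5′ end of Ddx1, chr12:13242001-13252000 held 5.26 and 3.08 per 1000 in ES cells against 1.07 and 1.31 in MEFs, an O/E difference of 1.07 (limma adjusted p = 0.0288), which ended without ES replicate 1 (0.79, adjusted p = 0.069). With a curve per side the difference was 1.00 (limma adjusted p = 0.155). At this window O/E was 1.17 and 0.61 in ES cells against -0.30 and -0.05 in MEFs. Nearer the 3′ end, at chr12:13234001-13244000, the MEF libraries disagreed, with O/E of 0.03 and 0.89 against 1.06 and 0.97 in ES cells. At the 3′ end both cell types were above expectation. In Smc6, chr12:11282001-11292000 held 1.43 and 1.39 in ES cells against 0.060 and 0.202 in MEFs (1.11, adjusted p = 0.0106 by limma). The MEF replicate 1 value there is 1 count. This window passed the filter through the ES libraries alone, which fixed its direction, so without either ES replicate it was not tested. With all listed windows tested it passed (adjusted p = 0.0112 by limma).

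The remaining ES-higher regions, 292 kb out on the higher side (0.91, limma adjusted p = 0.0359) and 382 kb out on the lower side (0.68, 0.0344), ended when either ES replicate was left out. The first of these also ended with MEF replicate 1 left out (adjusted p = 0.0527 by limma). Neither passed without the correction for distance.

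MEF-higher regions were led by 3 places on the lower side. The window chr12:12646001-12656000 lay 11.7 kb from Gm34637, its nearest gene. It held 5.25 and 5.31 per 1000 in ES cells against 9.78 and 9.98 in MEFs (O/E difference -1.19, limma adjusted p = 0.0156). At chr12:12585001-12595000 the difference was -1.07 (adjusted p = 0.0156 by limma). With a curve per side these moved to -0.43 and -0.37 (adjusted p = 0.206 and 0.381). Within Gm34489, chr12:12439001-12449000 held 1.58 and 1.65 in ES cells against 6.20 and 5.86 in MEFs, a difference of -0.95 (limma adjusted p = 0.0156) that stayed at -0.81 with a curve per side (0.086). At this window ES cells lay near expectation (O/E -0.11 and -0.01) and MEFs above it (0.91 and 0.86). The stretch above expectation in all 4 libraries also ran past the start of Gm34489 into the gene, to 12448000, so contact inside the gene was not confined to MEFs.

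The other MEF-higher regions were in Nbas (-0.80, limma adjusted p = 0.0305), 810 kb out on the lower side (-0.74, 0.0347) and in Vsnl1 (-0.68, 0.0394). All 3 windows passed the filter through the MEF libraries alone, which fixed their direction, and they were not tested without either MEF replicate. Of the 123 corrected calls, 20 entered in this way, 9 ES-higher and 11 MEF-higher. Without ES replicate 2 all 3 calls ended (adjusted p = 0.0957, 0.101 and 0.0599 by limma), and the call 810 kb out and that in Vsnl1 also ended without ES replicate 1 (0.0569 and 0.173). A pseudocount of 0.25 ended the calls at the start of Ddx1, 292 and 382 kb out and in Vsnl1 (adjusted p from 0.052 to 0.063 by limma), and testing all listed windows ended those in Nbas, in Vsnl1, 382 and 810 kb out (0.101 to 0.225).

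**Figure D5:**
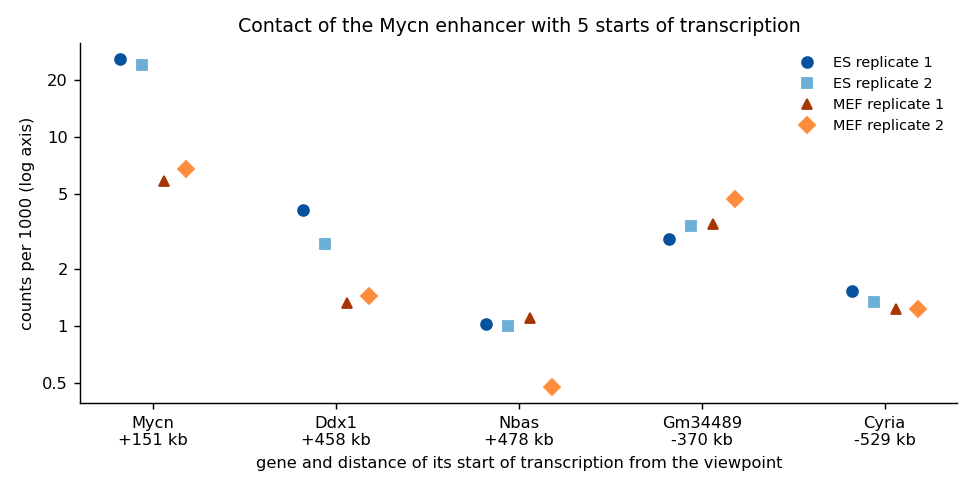
Mean counts per 1000 (vertical, log axis) of the 10 windows that hold each of 5 starts of transcription (horizontal, with distance from the viewpoint in kb), each point 1 library. At Mycn the ES points are at 26.0 and 24.1 and the MEF points at 5.90 and 6.82, at Ddx1 the groups are apart at lower values, and at Nbas and Cyria all points lie under 2.

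Windows that hold a gene's start of transcription were averaged as an alternative added after the data were seen. Of 12 starts that passed the filter, limma called 8 (66.7%), 4 with ES cells on top and 4 with MEFs on top (33.3% each). The Mycn start held 26.0 and 24.1 per 1000 in ES cells against 5.90 and 6.82 in MEFs, a log2 difference of 1.82 (SE 0.08). The Ddx1 start held 4.13 and 2.74 against 1.32 and 1.45, a difference of 0.88 (SE 0.21, limma adjusted p = 0.00106). Both ES libraries were above both MEF libraries at these starts. The start of Nbas, the next gene beyond Ddx1, held 1.03 and 1.00 in ES cells against 1.10 and 0.48 in MEFs, and did not pass (limma adjusted p = 0.516).

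The starts of Gm34489 and Cyria, on the lower side, did not pass. That of Gm34489 held 2.88 and 3.39 per 1000 in ES cells against 3.46 and 4.70 in MEFs (log2 difference -0.29, limma adjusted p = 0.14), and that of Cyria 1.53 and 1.34 against 1.23 and 1.23 (0.13, limma adjusted p = 0.596). Among the noncoding RNA genes, the starts of Gm35155 (0.30) and Gm35208 (1.12) were higher in ES cells. Those of Gm34637 (-0.47), Gm35298 (-0.61), Gm35350 (-0.57) and Gm24208 (-0.61) were higher in MEFs. The starts of Gm35298 and Gm35350 both lie 312 kb out and share windows, so they are not separate places.

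Whole genes with 10 kb on each side gave 17 of 23 loci called by limma (73.9%), 7 with ES cells on top (30.4%) and 10 with MEFs on top (43.5%). These are not counts of separate places, since loci that overlap or lie close together share windows. Rpl36-ps3 lies within Gm40271, for instance, and Gm35350 overlaps Gm35298. Of the ES-higher loci 1, that of Mir7675, passed the filter through the ES libraries alone. The split was 9 to 1 with median-centred values and 5 to 3 after quantile normalization, with 8 calls without ES replicate 1 and 8 without ES replicate 2. The list of neighbours of Mycn had 25 members, of which 24 had windows and 3 passed the filter. Mycn was ES-higher, Cyria MEF-higher and Ddx1 not called (ES-higher with median-centred values, limma adjusted p = 0.00397), and their median log2 difference was 0.22 against -0.02 over all 23 loci. The Mycn locus held 16.7 and 16.9 per 1000 in ES cells against 5.86 and 5.95 in MEFs and kept its call in all 16 alternatives. The Cyria locus held 1.15 and 1.23 against 1.79 and 1.55 (limma adjusted p = 0.0235). Its call ended in 9 of 16 alternatives, among them the fits that left out ES replicate 1 (0.171), ES replicate 2 (0.143) and MEF replicate 1 (0.179), and at the start of transcription its sign turned.

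The 21 neighbours under the filter stood at 0.880 per 1000 or less in every library. Smc6 was highest among them, at 0.880 and 0.863 in ES cells against 0.326 and 0.311 in MEFs, and next were Msgn1, a mesoderm transcription factor, at 0.689 and 0.415 against 0.215 and 0.482, and Gen1, a DNA repair nuclease, at 0.613 and 0.663 against 0.358 and 0.263. The loci of Nbas held 0.541 and 0.555 against 0.611 and 0.499. The pluripotency and MYC network list had 11 members, of which 3 had windows and Mycn alone passed the filter, with Dnmt3a and Odc1 at 0.183 or less. Of the 8 genes of the fibroblast and mesenchymal list, 2 had windows, Osr1 and Meox2, and neither passed, at 0.185 or less. Beyond 1.6 Mb these data therefore hold no contact with a gene of either list that could be compared at this depth.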

How the data were processed

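Per the labels' protocols the libraries were made by 4C-seq with DpnII and Csp6I. Per the submitters' processing notes, Bowtie 1.0.0, edgeR and build mm10 were used. Read filters and the counting into windows are not given in the sources used here. Values of the deposited table are named CPM, with 1 column per library. All values (100% in each library, tolerance 0.01 count) were whole multiples of 1 step, and the totals so recovered make the values counts per 1000. Listed windows held 72.9% to 75.2% of each total, and intervals cover counting error and library spread only.

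Groups came from the sample titles. Tests were two-sided, with limma 3.58.1 (R 4.3.3, lmFit and eBayes, intensity trend except for bands) on log2(value + 1), or log2(sum + 0.01) for bands, and Benjamini-Hochberg adjustment over all windows, bands, loci or starts at 0.05. Log2 differences are ES minus MEF, and they understate the change of low values. The spread was pooled over overlapping windows, so small p-values from 2 libraries a group may be too small. The expected curve was isotonic on log2(value + 1), outside 20 kb from the viewpoint. Windows called in 1 direction and at most 20 kb apart were joined into regions. The named items are, by rule, the 10 highest peaks of each cell type, up to 6 regions per direction whose groups do not overlap at the window of smallest p, and 3 gene lists (neighbours of Mycn, pluripotency and MYC network, fibroblast and mesenchymal). Members and lists were chosen with earlier results of these data known. Of the 25 neighbours, Mycnos was not found in the gene table, and Slc66a3 is Pqlc3 there. Gene positions and sequences are from RefSeq (GRCm38.p6, the assembly that mm10 names). Genes on opposite strands share windows.

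On the recovered counts edgeR 4.0.16 (quasi-likelihood test) called 339 windows, of which limma shared 327 with the same sign, and 17 gene loci, all 17 shared. Replicates differed by more than sampling noise (chi-square 2677 on 500 degrees of freedom in ES cells, 2554 on 448 in MEFs). Deviations of replicates with the same number were hardly correlated across cell types (r = 0.04), which does not settle whether those samples were prepared together. Alternatives varied the pseudocount, filter, trend, scaling, depth, window overlap, distance range, expected curve, gene flank, peak width, replicate block and each library in turn. A curve of the lower side alone and windows at starts of transcription were added after the data were seen. The methods were also run on simulated data with independent windows and, for the corrected fit, the same decay on both sides. These settings differ from the data, so the outcome is not used as support here. Plots were made in Python 3.11.15 (matplotlib 3.10.9).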

Additional observations from a re-analysis of the deposited data

Results flagged for a closer look

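In 3 measures the ES minus MEF difference of the Mycn enhancer ran opposite to that of the Ets1 promoter in every library. The difference between the viewpoints' differences was -0.399 for the decay slope, 1.45 for the log2 side balance and 19.8 percentage points for the share within 200 kb. Each had an exact permutation p of 0.0556, the smallest that 36 arrangements can give, and 0.111 after adjustment over 6 comparisons, so none passed. At the Ets1 promoter the share within 200 kb was 39.3% and 40.3% in ES cells against 47.4% and 48.0% in MEFs. The side balance compares different neighbourhoods at the viewpoints, so its sign has no shared meaning between them.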

How the results depend on the processing

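No direction of a slope, side balance, share or band that passed was reversed under the alternatives run, and of the called values 1 reversed, the Cyria locus at its start of transcription (0.13). Bands that did not pass changed sign in 8 fits. The band at 50 to 100 kb on the lower side (0.02) was -0.056 after rescaling beyond 50 kb and -0.064 to 0.10 without 1 library, and that at 3200 to 6400 kb there (0.15) was -0.085 to 0.38 without 1 library. On the higher side, that at 3200 to 6400 kb (0.13) was -0.14 to 0.40 and that at 6400 to 12800 kb (-0.13) was -0.32 to 0.048 without 1 library, the last also 0.016 in the fit on non-overlapping windows. The slope difference was -0.283 from 50 to 800 kb and -0.17 to -0.10 without 1 library, the side balance difference 0.99 from 50 to 800 kb (0.84 to 0.89 without 1 library), and the share difference 14.5 points with 50 kb left out (10.0 to 13.8). Uncorrected window calls (339) numbered 214 without a filter, 184 after quantile normalization, 37 of 110 among windows that do not overlap and 216 to 273 without 1 library. They split 240 ES to 36 MEF with median-centred values and 162 to 217 after rescaling beyond 50 kb. Distance-corrected calls (123) numbered 43 at a pseudocount of 0.25, 21 of 107 without overlap, 0 with a curve per side, 203 with loess, 215 with the lower-side curve (201 ES, 14 MEF) and 40 to 153 without 1 library. Band calls (6) were 3 to 10 without 1 library. Locus calls (17) were 10 with median-centred values (9 ES, 1 MEF), 8 after quantile normalization, 8 of 12 at starts and 8 to 16 without 1 library. ES peaks near a MEF peak (12) were 54 without a filter, 6 within 10 kb, 4 with peaks 50 kb wide on each side and 12 to 15 without 1 library. Shared windows (3, all below expectation) were 4 at a pseudocount of 0.25 (all above), 0 without a filter, 0 with a curve per side, 6 with loess (2 above), 1 after thinning, 0 with the lower-side curve and 0 to 1 without 1 library (the 1 without ES replicate 1 above). Fewer windows were tested where windows do not overlap, and the cause of the other shifts was not tested.

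The labels do not say whether replicate numbers pair the samples across cell types. With the replicate block, distance-corrected calls were 260, window calls 396, band calls 8 and locus calls 17. Depth limits values near 1 per 1000, which in MEF replicate 1 rest on few counts, since 1 count there is worth 0.0596 per 1000.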
